A study of Rattus norvegicus with 6 samples.

Results

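The aquaporins are membrane channels that let water, and in some members glycerol or hydrogen peroxide, cross cell membranes. The 8 described here (Aqp1, Aqp3, Aqp4, Aqp5, Aqp7, Aqp8, Aqp9 and Aqp11) were taken by gene symbol from a table of 19828 entries, and all 8 had a row. They were chosen by symbol with the measured values of this same comparison in view, so their differences are given as descriptions. An adjusted p shows where a gene stands in the fit across all genes and is no independent support. The table holds bulk RNA-seq of total lung from Sprague-Dawley rats, with 3 libraries of Ahr-knockout (Ahr-KO) and 3 of wild-type (WT) rats. Every rat had the Sugen-Hypoxia treatment, a VEGF receptor inhibitor given with low oxygen to model pulmonary arterial hypertension, and all samples are labelled day 56. All column names also carry the term NO after SU_H, which the sample titles do not explain. The titles do not say at which oxygen level the rats were kept at day 56. The knockout is also written Ahr-/- in the series text. No source used here gives the kind of Ahr edit, the sex or the age, and no untreated group was analysed here, so every value belongs to treated lungs. Ahr codes for a transcription factor, the aryl hydrocarbon receptor, that small molecules switch on.

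The values, normalised by the authors, behave as read counts divided by 1 factor for each library. Library totals were 17.8 to 18 M in WT and 18.9 to 19.3 M in Ahr-KO, and the smallest recurring step between values put the depth at 12.9 to 23.6 M reads per library. The numbers 0, 1 and 2 name the libraries of a group as the table does. Ahr itself overlapped between the groups, at 2860.4 to 3395 in WT and 2399 to 3923 in Ahr-KO. The AHR target Cyp1a1 stood at 23512 to 37694 in WT and at 0.83 to 10.5 in Ahr-KO. Sftpc, the surfactant protein that defines alveolar type 2 cells, was at 230761 or more in every library. In such whole tissue, fewer cells of a type and less RNA per cell cannot be told apart.

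Aquaporins fall into classes by what they carry. Aqp1, Aqp4, Aqp5 and Aqp8 are mainly water channels, and Aqp8 also passes hydrogen peroxide and ammonia. Aqp3, Aqp7 and Aqp9 are aquaglyceroporins that pass glycerol as well as water, and Aqp11 is a distant relative kept in the endoplasmic reticulum. In lung, AQP5 is known from the apical membrane of alveolar type 1 cells and gland cells, AQP1 from capillary endothelium, AQP3 from airway basal cells and AQP4 from the basolateral side of airway epithelium. Outside the lung lining, AQP9 is known from leukocytes and liver, AQP7 from fat, and AQP8 from pancreas, liver and gut.

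Of the 8 aquaporins, 7 passed the filter on low values (at least 3 libraries with a value of 1 or more) and 1, Aqp7, did not. Aqp8 was the single member past the threshold, and it was higher in Ahr-KO. It passed the filter through the 3 Ahr-KO libraries, where it is high, since only 1 WT library reached a value of 1. This count of 1 in 7 stands beside 10.8% of all 15386 tested genes (4.50% higher and 6.26% lower; limma-trend with Benjamini-Hochberg adjusted p under 0.05). Because the members were listed with this comparison known, nothing is read from the count. The median log2 difference of the 7 was -0.02, beside 0.01 over all tested genes. Among the 7, Aqp8 was the only one whose groups did not overlap, beside 34.3% of all tested genes (17.0% higher and 17.4% lower). The balance over the whole table depends on scaling: 692 genes were higher and 963 lower, against 448 and 1314 with equal library totals. Differences below are Ahr-KO minus WT on the log2(value + 1) scale with their standard error (SE), which understates changes of genes with low values.

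**Figure D1:**
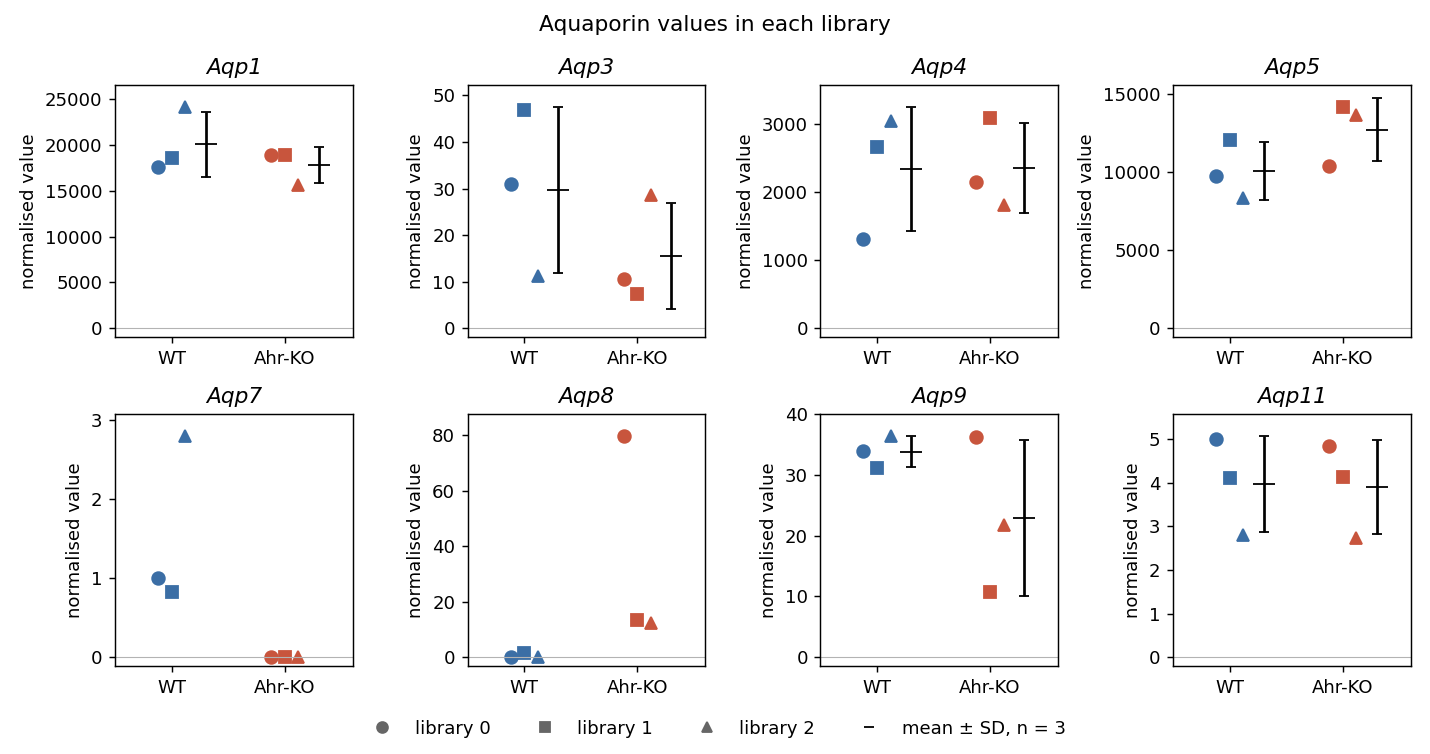
Normalised value of each aquaporin (vertical axes, linear, each with its own range) in the 3 WT and 3 Ahr-KO libraries, with 1 symbol per library number. Bars are mean ± SD over 3 libraries and are left out for Aqp7 and Aqp8, which are listed at 0 in some libraries; the Aqp8 panel shows all 3 Ahr-KO libraries at 12.3 or more and the WT libraries at 1.64 or less.

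Aqp8 went from near nothing in WT to a low level in Ahr-KO that varied widely. The WT libraries had 0, 1.64 and 0, in the order of their numbers. The Ahr-KO libraries had 79.8, 13.2 and 12.3. All 3 Ahr-KO libraries lay above all 3 WT libraries, but Ahr-KO library 0 was several times above the other two. Divided by each library's step, these values correspond to 2 reads in all WT libraries together and to 99, 16 and 9 reads in the Ahr-KO libraries. The ratio of these read totals per depth, Ahr-KO over WT, was 57.1, with an exact 95% interval of 15.5 to 477 that covers counting error only. Without Ahr-KO library 0 the same ratio was 18.9 (4.70 to 164). A value of 0 allows up to 3 reads, which is a value of 3 in WT library 0 and 4.20 in WT library 2. The fitted log2 difference was 4.17 ± 0.78 (n = 3 and 3, limma-trend adjusted p = 0.0175), with a 95% interval of 2.36 to 5.97. It was no longer past the threshold without WT library 0 (3.93, adjusted p = 0.0527) or without Ahr-KO library 2 (4.62, adjusted p = 0.053). The call was also lost with no filter on low values (adjusted p = 0.0901) and with limma-voom on the values divided by the step (adjusted p = 0.062). Its size was 6.51 with a pseudocount of 0.1 in place of 1.

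**Figure D2:**
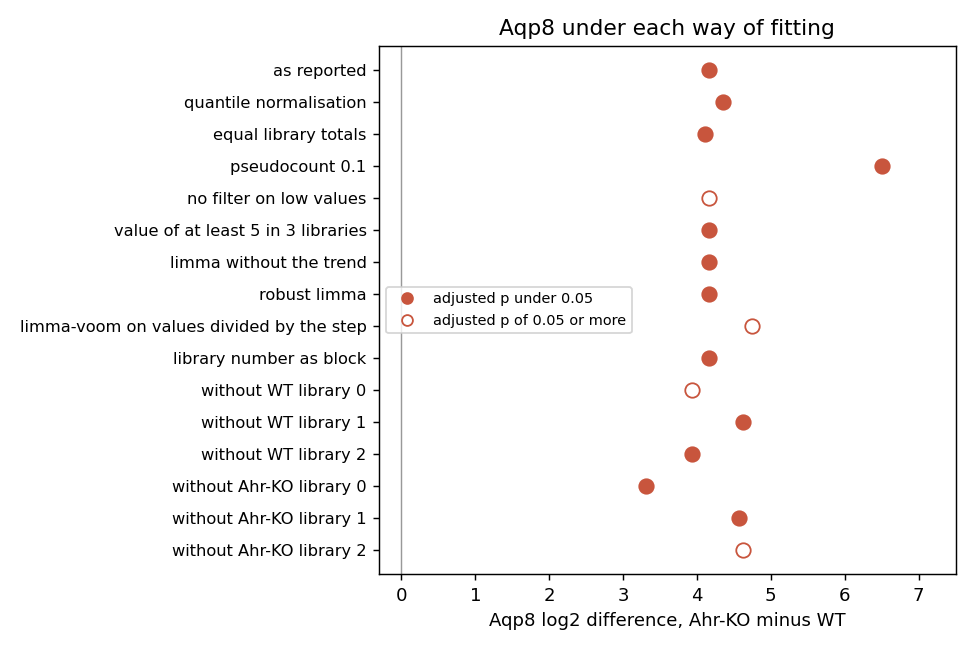
Log2 difference of Aqp8, Ahr-KO minus WT (horizontal axis), under each way of fitting (vertical axis), with filled points for an adjusted p under 0.05. All 16 points lie to the right of 0, between 3.31 and 6.51, and 4 of them are open.

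Aqp8 is best known from liver and pancreas, so markers of both were read beside it. Alb, the serum albumin of hepatocytes, stood at 42.0, 0.82 and 2.80 in WT and at 0.81, 0 and 1.36 in Ahr-KO. The digestive enzyme genes Prss1, Pnlip and Amy2a3 were listed at 0 in all 6 libraries. Cpa1, a further digestive enzyme gene, was low but above 0 in every library, at 1.64 to 4.20 in WT and 1.36 to 4.96 in Ahr-KO. Apoa1, an apolipoprotein gene of liver and gut, was at 13, 12.3 and 4.20 in WT and at 13.7, 11.6 and 16.4 in Ahr-KO. The part of either organ in the Aqp8 values was not tested. In that list 1 of 5 tested genes passed the threshold, with a median of -0.17. It was Serpina1, the protease inhibitor alpha-1-antitrypsin, which is also made outside the liver and rose from 273 ± 41.5 to 1292 ± 153 (n = 3 and 3, log2 2.24 ± 0.15, limma-trend adjusted p = 0.000575). Serpina1 is named for its call, after its values were seen. It makes up most of the list's summed value, which was 238 to 360 in WT and 1193 to 1483 in Ahr-KO.

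AHR binds DNA with its partner ARNT at a core written GCGTG, so the start region of Aqp8 is printed as the region of the called member. Those of Aqp5 and Aqp1, the members with the most reads behind them, are shown for comparison. Each sequence runs 5′ to 3′ on the gene's own strand, from 250 bases before to 50 bases after an annotated start, from RefSeq on build GRCr8 (the table itself was made on rn6). Capitals mark GCGTG on either strand, so a match on the other strand is seen as CACGC. The Aqp8 region is chr1:187424193-187424492 (+), the Aqp5 region chr7:132601278-132601577 (+) and the Aqp1 region chr4:85812534-85812833 (+).
Aqp8: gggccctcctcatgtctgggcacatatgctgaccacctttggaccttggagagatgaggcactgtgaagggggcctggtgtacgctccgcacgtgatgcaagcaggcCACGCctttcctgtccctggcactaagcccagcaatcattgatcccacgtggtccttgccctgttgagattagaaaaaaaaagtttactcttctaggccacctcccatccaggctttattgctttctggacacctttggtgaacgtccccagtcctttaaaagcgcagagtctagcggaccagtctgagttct
Aqp5: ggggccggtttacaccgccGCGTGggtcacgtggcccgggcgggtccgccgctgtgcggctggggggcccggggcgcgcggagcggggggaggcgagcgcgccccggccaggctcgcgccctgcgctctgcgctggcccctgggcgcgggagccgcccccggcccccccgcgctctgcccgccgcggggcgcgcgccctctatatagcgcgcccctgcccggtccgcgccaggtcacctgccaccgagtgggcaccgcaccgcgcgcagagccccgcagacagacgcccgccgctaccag
Aqp1: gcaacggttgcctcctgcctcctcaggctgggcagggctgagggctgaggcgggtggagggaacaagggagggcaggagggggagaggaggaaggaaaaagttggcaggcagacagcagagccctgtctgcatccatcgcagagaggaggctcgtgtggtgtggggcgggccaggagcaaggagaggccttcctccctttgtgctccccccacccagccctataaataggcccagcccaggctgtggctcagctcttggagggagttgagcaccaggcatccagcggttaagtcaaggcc

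The Aqp8 region held 1 match, on the other strand and starting 143 bases before the annotated start. The Aqp5 region held 1 match, 231 bases before the start, and the Aqp1 region 0. Entries were found for 7 of the 8 members (Aqp7 had none), and 4 of the 7 held GCGTG, namely Aqp3, Aqp5, Aqp8 and Aqp11. This count is by gene: Aqp4 had more than 1 region, and none of its regions held the core. Over all 33469 regions of this length, counted by region and not by gene, 29.7% held it. The longer form TNGCGTG was in 0 of the 7 members and in 4.89% of all regions. GCGTG is also 1 form of the core bound by hypoxia-inducible factors. Their other form, ACGTG, was in the regions of Aqp5 and Aqp8, where its matches on opposite strands overlap each other but no GCGTG, and in 19.3% of all. The regions differ in base composition, with 53.7% G and C in Aqp8, 82.3% in Aqp5, 72.3% in Aqp11 and 67.3% in Aqp3. Among members without GCGTG it was 64% in Aqp1, 53.3% in Aqp9 and 47.3% to 51.3% in the Aqp4 regions. A match is a description of letters and not a binding site.

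Aqp5, the apical water channel of alveolar type 1 cells, had a higher mean in Ahr-KO, by less than the test could call. It stood at 9733, 12038 and 8347 in WT, against 10378, 14149 and 13610.1 in Ahr-KO. The groups overlapped, as WT library 1 lay above Ahr-KO library 0. The means were 10039 ± 1864 and 12712 ± 2039 (SD, n = 3 each). Its log2 difference was 0.34 ± 0.17 (limma-trend adjusted p = 0.229, 95% interval -0.05 to 0.73), which spans from 0.969 to 1.66 times the WT level on the fitted scale.

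Part of the other alveolar type 1 cell genes passed the test. Of 10 tested markers, 6 were higher in Ahr-KO past the threshold and 0 were lower, with a median log2 difference of 0.70. Ager, the receptor for advanced glycation end products and the main marker of these cells, was at 37545, 51053 and 41994 in WT and at 62108, 74348 and 73191 in Ahr-KO (log2 0.69 ± 0.16, limma-trend adjusted p = 0.0337). The homeobox gene Hopx rose from 9969 ± 1858 to 20727 ± 1021 (n = 3 and 3, log2 1.07 ± 0.14, limma-trend adjusted p = 0.00708). For both genes every Ahr-KO library lay above every WT library. The groups of Pdpn, the podoplanin gene (log2 0.44, limma-trend adjusted p = 0.102), and Sema3e, a semaphorin gene (log2 0.24, limma-trend adjusted p = 0.376), overlapped as those of Aqp5 did. The count fell to 3 without WT library 0, to 3 without Ahr-KO library 1 and to 1 without Ahr-KO library 2, and was 0 with no filter on low values. Ager lost its call with no filter (adjusted p = 0.266) and without WT library 0 or 2 or Ahr-KO library 1 or 2 (highest of these adjusted p = 0.117), whereas Hopx kept it whichever library was left out. Ager also lost its call with quantile normalisation (log2 0.44, limma-trend adjusted p = 0.0632) and in limma without the trend (adjusted p = 0.0584).

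Set against the summed value of the 10 markers, Aqp5 amounted to 7.45%, 7.51% and 5.55% in WT, against 4.69%, 5.57% and 5.40% in Ahr-KO. These shares overlap, since WT library 2 was just below Ahr-KO library 1. The marker sum was 130572 to 160238 in WT and 221398 to 254238 in Ahr-KO, and its part in the Aqp5 values was not tested. Alveolar type 2 cell markers had 1 of 10 tested genes higher and 0 lower, with a median of 0.39. That 1 became 3 without WT library 2 and 0 without Ahr-KO library 2.

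Water follows the salt that epithelial sodium channels and the sodium pump move out of the alveolus, so those genes were read with Aqp5. Of 18 tested genes for lung ion and fluid transport, 3 were higher, 2 were lower and 13 did not pass, with a median of 0.05. The 3 were the subunits of the epithelial sodium channel ENaC. Scnn1a, the pore-forming alpha subunit, stood at 6125, 7355 and 8403 in WT and at 18622, 16377 and 19413 in Ahr-KO (log2 1.32 ± 0.13, limma-trend adjusted p = 0.00336). The gamma subunit Scnn1g rose from 1635 ± 290 to 2809 ± 175 (log2 0.80 ± 0.14, limma-trend adjusted p = 0.014). Scnn1b, the beta subunit, rose from 673 ± 67.4 to 946 ± 85.0 (log2 0.49 ± 0.12, limma-trend adjusted p = 0.0373). No subunit had overlapping groups.

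The 2 lower genes belong to the sodium pump or regulate it. Atp1b3, a beta subunit of that pump, went from 8513 ± 897 to 5636 ± 334 (log2 -0.59 ± 0.10, limma-trend adjusted p = 0.0148). Fxyd5, a small regulator of the pump, went from 1345 ± 56.5 to 822 ± 54.1 (log2 -0.71 ± 0.09, limma-trend adjusted p = 0.00599). Scnn1a and Fxyd5 kept their calls in every alternative fit. When Ahr-KO library 2 was left out, Scnn1g (adjusted p = 0.0686) and Atp1b3 (adjusted p = 0.0676) lost theirs. Scnn1b lost its call without any 1 library other than WT library 2 (highest adjusted p = 0.123). It also lost its call with quantile normalisation (limma-trend adjusted p = 0.0529) and with equal library totals (limma-trend adjusted p = 0.0683). The counts were 5 higher without WT library 2, and 1 higher and 1 lower without Ahr-KO library 2; leaving out any other library gave 2 higher and 2 lower.

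**Figure D3:**
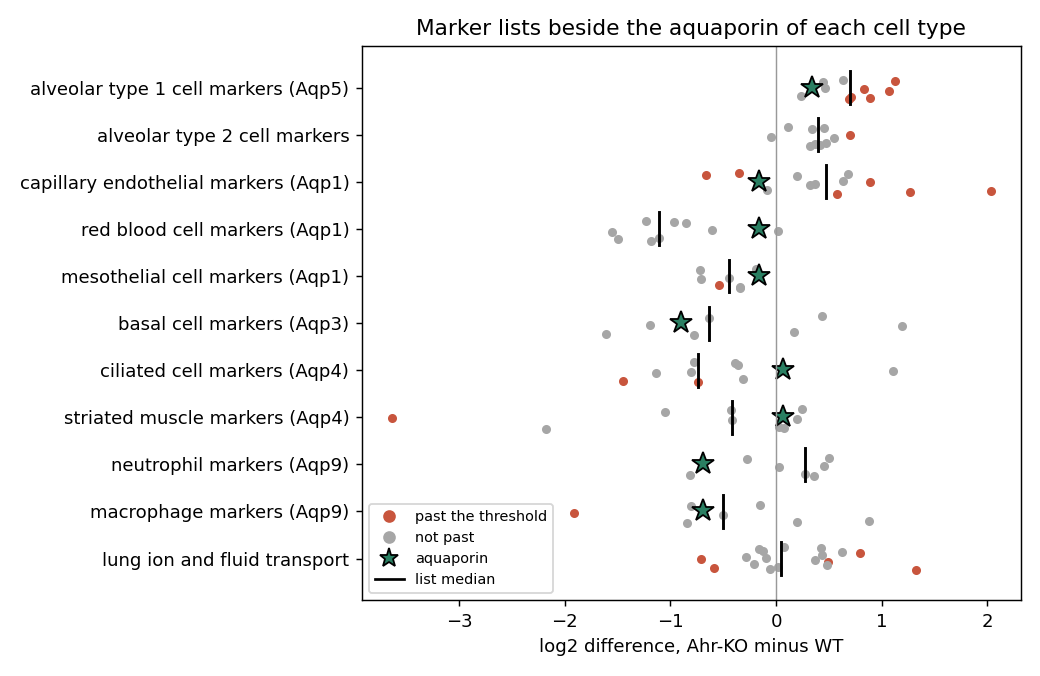
Log2 difference, Ahr-KO minus WT (horizontal axis), of each tested gene in 11 lists (rows), with genes past the threshold in red, list medians as bars and the matching aquaporin as a star. The Aqp5 star at 0.34 lies below the alveolar type 1 median of 0.70, and the Aqp1 star at -0.17 below the capillary median of 0.47.

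Aqp1, the water channel of capillary endothelium, also overlapped between the groups. Its values were 17549, 18589 and 24132 in WT and 18883, 18946 and 15595 in Ahr-KO. WT library 2 was the highest and Ahr-KO library 2 the lowest, while the other 4 lay within 17549 to 18946. Means were 20089.8 ± 3539 and 17808 ± 1917 (SD, n = 3 each), a log2 difference of -0.17 ± 0.15 (limma-trend adjusted p = 0.518). The 95% interval allows 0.702 to 1.13 times the WT level. Without WT library 2 the difference was -0.03.

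Capillary markers moved in both directions. Of 12 tested genes, 4 were higher, 2 lower and 6 did not pass, with a median of 0.47. Pecam1, the adhesion molecule CD31, rose from 6608 ± 1240.0 to 9811 ± 1013 (log2 0.58 ± 0.15, limma-trend adjusted p = 0.0443). Cdh5, the endothelial cadherin, was 7102 ± 538 and 8884 ± 978 (log2 0.32 ± 0.11, limma-trend adjusted p = 0.106). The 2 lower genes were Plvap and Emcn. Plvap went from 27116 ± 5976 to 16863 ± 1027 (log2 -0.66 ± 0.17, limma-trend adjusted p = 0.0473). Emcn went from 2288 ± 161 to 1789 ± 64.7 (log2 -0.35 ± 0.09, limma-trend adjusted p = 0.042). Leaving out Ahr-KO library 1 gave 1 higher gene, and leaving out either WT library 0 or Ahr-KO library 2 gave 2. No gene was lower when any 1 library other than WT library 2 was left out. Pecam1 lost its call without any 1 library other than WT library 1 (highest adjusted p = 0.142). It also lost its call with quantile normalisation (limma-trend adjusted p = 0.0908) and with equal library totals (limma-trend adjusted p = 0.0689). The summed capillary value was lowest, at 91936, in WT library 2, the library with the highest Aqp1.

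Red blood cells and mesothelium carry AQP1 too. Of 9 tested red blood cell markers 0 passed (median -1.11), with 2 lower without WT library 0, and their summed value ranged from 4999 to 17117 in WT and from 2915 to 7373 in Ahr-KO. Of 7 mesothelial markers 1 was lower (median -0.45), or 0 without WT library 0 or 1 or Ahr-KO library 1 or 2, and their sum was 2934 to 4637 in WT and 2426 to 3390.0 in Ahr-KO. The part of either cell type in the Aqp1 values was not tested.

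**Figure D4:**
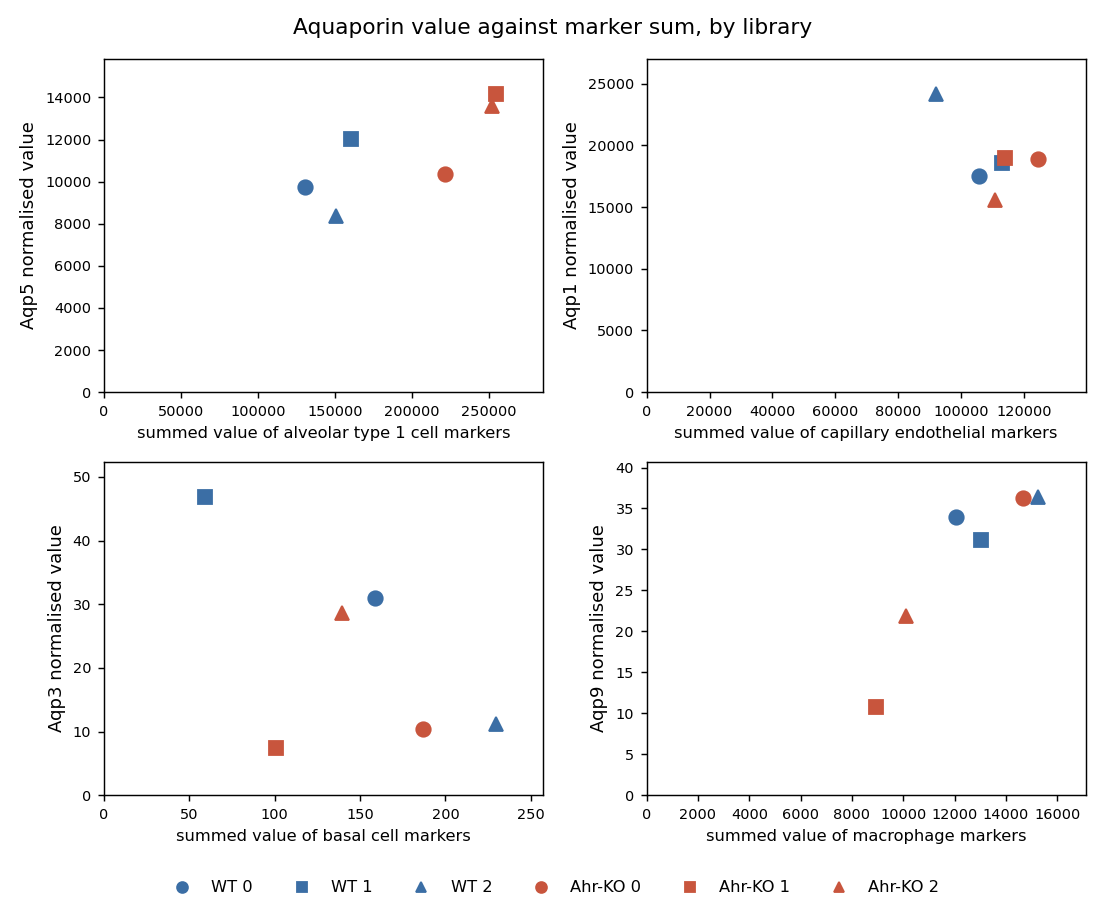
Normalised value of an aquaporin (vertical axes, from 0) against the summed value of a marker list (horizontal axes, from 0) in each library, WT in blue and Ahr-KO in red. Ahr-KO libraries 1 and 2 are lowest for Aqp9 and for the macrophage sum, whereas the highest Aqp3 value, 46.8, is in the library with the lowest basal sum.

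Aqp4, the basolateral water channel, varied within each group by more than the groups differed. It stood at 1309.5, 2672 and 3045 in WT and at 2158, 3097 and 1816 in Ahr-KO, so the highest WT library was 2.33 times the lowest. The means were 2342 ± 914 and 2357 ± 664 (SD, n = 3 each), a log2 difference of 0.06 ± 0.32 (limma-trend adjusted p = 0.924). Its direction turned with quantile normalisation (-0.02), equal library totals (-0.03) and limma-voom (-0.02). It also turned when WT library 0 (-0.31) or Ahr-KO library 1 (-0.15) was left out. The interval of 0.624 to 1.75 times the WT level bounds what these libraries allow.

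Ciliated cells, which line the airways where AQP4 is found, had 2 of 9 tested markers lower and 0 higher, with a median of -0.74. Foxj1, the factor that drives the motile cilia programme, went from 1099.7 ± 164 to 662 ± 124 (log2 -0.74 ± 0.16, limma-trend adjusted p = 0.0297). Foxj1 lost its call without WT library 0 or 1 and without Ahr-KO library 0 or 2 (highest adjusted p = 0.0944). Leaving out WT library 1 or Ahr-KO library 2 gave 0 lower genes in the list, and leaving out library 0 of either group gave 1. The ciliated sum was 3571 to 4849.9 in WT and 2013 to 3121 in Ahr-KO. Set against that sum, Aqp4 amounted to 36.7%, 63.4% and 62.8% in WT, against 79.2%, 99.3% and 90.2% in Ahr-KO. Every Ahr-KO share lay above every WT share, while Aqp4 itself overlapped between the groups and the ciliated sum did not. Against the capillary, basal and macrophage sums, the shares of Aqp1, Aqp3 and Aqp9 overlapped, as that of Aqp5 did in its list. How often such shares separate over all genes was not measured. The part of ciliated cells in the Aqp4 values was not tested. AQP4 is also known from striated muscle, and Myh6, a cardiac myosin, was at 29.0, 569 and 1985 in WT and at 775, 474 and 0 in Ahr-KO. The members of that list did not share 1 order over libraries. Ahr-KO library 2, with Myh6 at 0, had the highest Acta1 (115) and Tnnt3 (127), both actin or troponin genes of skeletal muscle. Myh1, a skeletal muscle myosin gene, was the list's only called gene and was also at 0 in that library. Its values were 16.0, 23.8 and 14.0 in WT and 0.81, 0.83 and 0 in Ahr-KO (log2 -3.63 ± 0.46, limma-trend adjusted p = 0.00583). Myh1 passed the filter only through the 3 WT libraries, where it is high, since no Ahr-KO library reached a value of 1. Without any 1 of the WT libraries it was therefore not tested. The summed muscle value was 959 to 5059.7 in WT and 1866 to 2097 in Ahr-KO, and the part of muscle in the Aqp4 values was not tested.

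Of 10 tested genes for the complex that anchors AQP4 in membranes, 2 were higher, 0 lower and 8 did not pass, with a median of 0.16. Mlc1, a membrane protein found with AQP4 in astrocyte endfeet, was at 4.0, 20.5 and 4.20 in WT and at 211, 414 and 599 in Ahr-KO (log2 5.51 ± 0.61, limma-trend adjusted p = 0.00435). Its call held in every alternative. Agrn, the matrix proteoglycan agrin, rose from 10083 ± 1419.7 to 15019 ± 1925 (log2 0.58 ± 0.14, limma-trend adjusted p = 0.0396). Its call was lost without WT library 0 or 2 or Ahr-KO library 1 or 2 (highest adjusted p = 0.138). The call was also lost with quantile normalisation (limma-trend adjusted p = 0.0889) and with equal library totals (limma-trend adjusted p = 0.0624). The astrocyte marker Gfap was at 5.60 to 11.5 in WT and 6.45 to 23.2 in Ahr-KO. The list held 1 higher gene without WT library 0 and without Ahr-KO library 1 or 2, and 3 without WT library 2.

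Aqp3, the glycerol and water channel of airway basal cells, was low and scattered. Its values were 31.0, 46.8 and 11.2 in WT and 10.5, 7.44 and 28.6 in Ahr-KO. WT and Ahr-KO overlapped, with WT library 2 near the lower Ahr-KO libraries and Ahr-KO library 2 near WT library 0. The values rest on 8 to 57 reads per library. The log2 difference was -0.90 ± 0.63 (n = 3 and 3, limma-trend adjusted p = 0.396), and its interval of 0.196 to 1.46 times the WT level is wide. It was -1.46 without WT library 2 and -0.47 without WT library 1.

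Basal cell markers had their lowest sum where Aqp3 was highest, but single markers differed in order. Of 7 tested genes 0 passed in either direction (median -0.64). Krt5, their usual marker, had no row in the table and was not analysed here. Tp63, the basal cell transcription factor, was at 4.93 to 6.0 in WT and 2.42 to 3.31 in Ahr-KO (log2 -0.77 ± 0.39, limma-trend adjusted p = 0.245). Its adjusted p was 0.034 in limma without the trend. Krt15, a keratin of the same cells, was at 15.6 to 69.9 in WT and 68.6 to 140 in Ahr-KO (log2 1.20 ± 0.57, limma-trend adjusted p = 0.213). WT library 1 had the highest Aqp3 and the lowest summed basal value, 59.1 in a range of 59.1 to 229 over all libraries. Krt15 (15.6), Krt14 (0) and Dsg3 (0) were also lowest in that library, whereas Krt17 (11.5) was highest there. Tp63 (4.93) and Ngfr (23.8) of that library lay above every Ahr-KO library.

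Aqp9, the glycerol channel of leukocytes, was even in WT and uneven in Ahr-KO. It stood at 34.0, 31.2 and 36.4 in WT, against 36.3, 10.7 and 21.8 in Ahr-KO. Ahr-KO library 0 lay among the WT libraries, while Ahr-KO libraries 1 and 2 lay below all of them. The means were 33.9 ± 2.58 and 22.9 ± 12.8 (SD, n = 3 each), a log2 difference of -0.69 ± 0.42 (limma-trend adjusted p = 0.33). Without Ahr-KO library 0 it was -1.09 (adjusted p = 0.122) and without Ahr-KO library 1 it was -0.25.

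The summed macrophage value was lowest in the same 2 libraries, but single markers differed in order. The sum was 12072 to 15269 in WT and 14675, 8924 and 10104 in Ahr-KO libraries 0, 1 and 2. Cd68, a lysosomal protein of macrophages, was at 1379 to 1607 in WT and at 1265, 567 and 832 in Ahr-KO. The mannose receptor gene Mrc1 was at 3351 to 6116 in WT and at 6383, 2033 and 2417 in Ahr-KO. Csf1r, the receptor for a macrophage growth factor, went the other way, at 4908 to 5036 in WT and at 5505, 5590.0 and 6090 in Ahr-KO. The scavenger receptor gene Cd163 was lowest in WT libraries 0 and 1 (40.0 and 32.8). In that list 1 of 7 tested genes was lower and 0 were higher (median -0.50), with 3 lower without Ahr-KO library 0. The lower gene was C1qa, at 1849, 1652 and 1898 in WT and at 645, 433 and 390 in Ahr-KO (log2 -1.91 ± 0.18, limma-trend adjusted p = 0.0031). For C1qa, Ahr-KO library 0 also lay below every WT library. Marco was listed at 0 in every library. Neutrophil markers had 0 of 7 past the threshold (median 0.27), and S100a8, a calcium-binding protein that fills neutrophils, was at 154 to 362 in WT and 179 to 366 in Ahr-KO. The part of either cell type in the Aqp9 values was not tested.

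Aqp7, the glycerol channel of fat cells, was at the limit of detection. It was at 1.00, 0.82 and 2.80 in WT, which is 1, 1 and 2 reads, and was listed at 0 in all 3 Ahr-KO libraries. The 3 reads that a 0 allows correspond to 2.42, 2.48 and 4.09 in those libraries, which is as high as most of the WT values, so no difference was detectable at this depth. Fat cell markers were low in part: Adipoq, the adiponectin gene, was at 0 to 21.0 in WT and 1.36 to 2.48 in Ahr-KO, and the lipid droplet gene Plin1 was at 0 to 14 in WT and listed at 0 in Ahr-KO. Of 5 tested fat cell markers 0 passed (median -0.58), with 1 lower without Ahr-KO library 0.

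Genes that release or use glycerol, the solute of Aqp3, Aqp7 and Aqp9, mostly did not pass. Of 14 tested, 1 was higher, 1 lower and 12 did not pass (median 0.10). Gpihbp1, which holds lipoprotein lipase on capillaries and is also in the capillary list, rose from 323 ± 204 to 1149.9 ± 83.6 (log2 2.03 ± 0.40, limma-trend adjusted p = 0.0202). It lost its call without WT library 0 and without Ahr-KO library 1 or 2 (highest adjusted p = 0.0841). Pck1, a key enzyme of glucose and glycerol synthesis, was at 28.0, 25.5 and 14 in WT and at 4.03, 0.83 and 2.73 in Ahr-KO (log2 -2.80 ± 0.50, limma-trend adjusted p = 0.0154). It lost its call without WT library 0 or 1 and without Ahr-KO library 2 (highest adjusted p = 0.0601).

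Aqp11, the endoplasmic reticulum member, rested on few reads. It stood at 5.0, 4.11 and 2.80 in WT and at 4.84, 4.13 and 2.73 in Ahr-KO, from 2 to 6 reads per library. In both groups the library numbered 2, the shallowest, was lowest. The log2 difference was -0.02 ± 0.43 (n = 3 and 3, limma-trend adjusted p = 0.983), and its interval of 0.494 to 1.97 times the WT level shows how little these reads can exclude. Its sign turned with quantile normalisation (0.22) and in the fits leaving out WT library 0 (0.13), WT library 1 (0.01) or Ahr-KO library 2 (0.16).

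**Figure D5:**
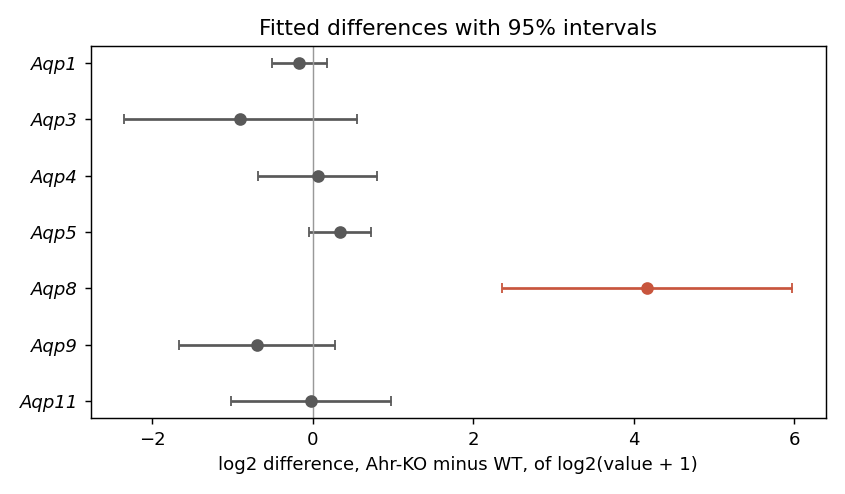
Fitted log2 difference, Ahr-KO minus WT (horizontal axis), of the 7 tested aquaporins (rows), with 95% intervals from limma-trend. Only the interval of Aqp8, 2.36 to 5.97, lies away from 0, and the intervals of Aqp1 and Aqp5 are the narrowest.

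The likeness of other genes to each member was measured as Pearson's r of log2(value + 1) over the 6 libraries, among 13838 tested genes with a mean of at least 10. With so few libraries, high values arise for many genes, and r is given as a description. Aqp5 was most like Jag2, a Notch ligand gene (r = 0.996), which stood at 1235 to 1894 in WT and 1544 to 2131 in Ahr-KO, and 77 genes had an r above 0.95. Aqp9 was most like Lrp1, a large endocytic receptor gene (r = 0.993), which was at 9603 to 10655 in WT and at 10881, 6271 and 8143 in Ahr-KO. Aqp8 was most like Tcn2, the vitamin B12 carrier transcobalamin (r = 0.994), which was at 2915 to 3296 in WT and 3807 to 4979.9 in Ahr-KO. Next for Aqp8 was Acadm, a fatty acid oxidation enzyme gene (r = 0.989). Aqp3 was most like Chmp6 (r = 0.994), Aqp1 most like Nom1 (r = 0.988) and Aqp4 most like Glt8d2 (r = 0.974).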

How the data were processed

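Total RNA from lung was sequenced in 6 samples, in a single deposited table of genes by libraries. The signal the authors deposited behaves as a read count normalised per library, by a method that no source used here gives. In each library, 97.4% to 97.9% of the non-zero values were whole multiples of 1 step (tolerance 0.05), and the others were fractions, so no count model was used. The submitters' processing notes name FastQC and the build rn6. Aligner, counter, annotation and strandedness: not given in the sources used here. Reads per gene below are values divided by the step.

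Columns name the genotype and number libraries from 0, whereas sample titles count from 1, so columns were assigned to groups only. Nothing in the labels says that the samples are separate animals. The p-values therefore set the group difference only against how far these samples spread within a group, and that spread may be technical. All pairs of libraries differed by more than sampling noise (lowest chi-square per gene 15.4). There were 0 unused value columns.

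Genes that reached 1 in 3 or more libraries were fitted on log2(value + 1) with limma 3.58.1 (R 4.3.3, limma-trend, genotype as the only term), with 2-sided p-values adjusted (Benjamini-Hochberg) over the 15386 genes tested. An exact test of 3 against 3 cannot go below 0.1. The fit was tested on simulated data. Alternatives were quantile normalisation, equal library totals, a pseudocount of 0.1, no filter, a filter at 5, limma without the trend, robust limma, limma-voom after division by the step, the library number as a block and each library left out. The members and 24 gene lists were chosen with earlier results of these data known. Named were the members, the first genes of a list, called genes of the transport, anchoring, glycerol and peroxide lists, and the 3 genes most like each member (mean of at least 10); not all are printed. Other genes were named after their values were seen.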

Additional observations from a re-analysis of the deposited data

How the results depend on the processing

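Aqp1, Aqp3, Aqp5 and Aqp9 kept their direction and stayed on their side of the threshold in all 15 alternatives, with ranges of -0.35 to -0.03, -1.46 to -0.47, 0.18 to 0.48 and -1.09 to -0.25 on the log2 scale. Aqp4 turned to -0.02 with quantile normalisation or limma-voom and to -0.03 with equal totals, and Aqp11 to 0.22 with quantile normalisation. With 1 library left out, Aqp4 ranged from -0.31 to 0.30, Aqp11 from -0.20 to 0.16, Aqp12a from -0.76 to 0.28 and Ahr from -0.06 to 0.29. The number of aquaporins past the threshold was 0 with no filter and 0 with limma-voom, and 0 to 1 when 1 library was left out. Ahr turned to -0.01 with quantile normalisation, equal totals or limma-voom.

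Across all genes, 451 passed with no filter (190 higher, 261 lower), 952 without the trend (301 higher) and 899 with the library number as a block (334 higher, 565 lower). Higher genes numbered 448 with equal totals and 436 with limma-voom. Leaving out 1 library gave 407 to 1834 genes, 135 to 930 higher and 272 to 920 lower. The cause was not tested. The block is no pairing here: deviations of equally numbered libraries correlated at -0.10, 0.07 and -0.07. Under the block Aqp8 kept its call (adjusted p = 0.0411), whereas Scnn1b, Pecam1, Agrn, Prdx1, Sod3, Nox4 and Duox2 lost theirs. Scnn1b, Pecam1 and Agrn also lost theirs with quantile normalisation, equal totals or limma-voom, as did Ager with quantile normalisation. Duox2 lost its call with equal totals or limma-voom. Without the trend, Ager, Scnn1b, Pecam1, Foxj1, Agrn, Gpihbp1, Prdx1, Sod3, Nox4 and Duox2 lost theirs. With no filter, Scnn1a, Fxyd5, Mlc1, Prdx1, Sod2, Serpina1 and Cyp1a1 kept their calls and the other called genes that were followed lost them. Of the other 24 genes followed through the alternatives, 8 changed in none and 14 lost their call in at least 1. Aqp11 and Aqp12a were not tested with the filter at 5. Low reads limit Aqp7, Aqp8 and Aqp11 most.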

Other observations

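Further aquaporin genes with rows had few reads. Aqp12a, a distant relative of Aqp11, was at 4.0, 1.64 and 1.40 in WT and at 3.22, 2.48 and 0 in Ahr-KO (log2 -0.37 ± 0.68, limma-trend adjusted p = 0.769). Mip, the lens aquaporin, reached 1.40 in WT and 1.61 in Ahr-KO. Aqp2, the kidney collecting duct channel, reached 1.40 in WT and 0.81 in Ahr-KO, and Aqp6 reached 0.82 in WT and 4.09 in Ahr-KO.

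Further marker lists gave these counts. Lymphatic endothelium had 2 of 5 tested markers lower (median log2 difference -0.94), or 1 without WT library 0 or 2 and without Ahr-KO library 1 or 2, and 3 without Ahr-KO library 0. Fibroblasts had 2 of 7 lower (median -0.55), or 1 without WT library 0 and without Ahr-KO library 1 or 2. Smooth muscle had 0 of 7 past the threshold (median 0.15). Airway secretory and gland cells had 1 of 8 higher and 1 lower (median -0.58). The lower one, Bpifa1, passed the filter only through the WT libraries, so it was not tested without any 1 of them. Its call was also lost without Ahr-KO library 2. Striated muscle had 1 of 9 lower (median -0.41), which was not tested without any 1 of the WT libraries. Astrocytes had 1 of 6 lower (median 0.04), lost without WT library 0 or 1 and without Ahr-KO library 1 or 2. AHR target genes were lower in 6 of 6, with 4 to 6 when 1 library was left out.

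Genes that make or remove hydrogen peroxide, which some aquaporins conduct, moved mostly downward where they passed. Of 18 tested, 4 were lower, 1 was higher and 13 did not pass, with a median log2 difference of -0.17. Sod2, the mitochondrial superoxide dismutase, went from 2789 ± 170 to 1909 ± 28.3 (n = 3 and 3, log2 -0.54 ± 0.08, limma-trend adjusted p = 0.00964), and its call held in every alternative. Also lower were the peroxiredoxin gene Prdx1 (log2 -0.35, adjusted p = 0.032), the extracellular dismutase gene Sod3 (log2 -0.48, adjusted p = 0.0296) and the NADPH oxidase gene Nox4 (log2 -0.92, adjusted p = 0.0302). Duox2, an epithelial peroxide-producing oxidase, rose from 6.22 ± 3.53 to 24.6 ± 9.26 (n = 3 and 3, log2 1.88 ± 0.49, limma-trend adjusted p = 0.0494). The list held 1 lower gene without WT library 0 or 1 and without Ahr-KO library 1 or 2, and 0 higher without any 1 library other than Ahr-KO library 0. Prdx1, Sod3 and Nox4 were each lost in fits without 1 library (highest adjusted p = 0.111, 0.105 and 0.116), as was Duox2 (highest adjusted p = 0.174).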
